A study of Mus musculus with 27 samples.

Results

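The 10 genes described here, Notch1, Notch3, Jag1, Dll4, Hey1, Hey2, Heyl, Hes1, Rbpj and Nrarp, belong to the Notch pathway of blood vessels. They were found by symbol, 10 of 42375 gene rows in each of 4 bulk count tables and 10 of 32285 gene rows in each of 4 single-cell matrices. All 27 samples came from mice of a C57BL/6 strain background infused with angiotensin II (Ang II), a peptide hormone that raises blood pressure, for 28 days, and no group without Ang II was analysed here. The bulk groups were non-stripped aorta labelled TKO (3 libraries) or Cre (3), stripped aorta TKO (2) or Cre (4), fibroblasts isolated from digested aortas TKO (3) or Cre (3), and non-stripped TKO aorta from mice also given an anti-IL-9 antibody (labelled IL9mAb, 2) or control IgG (3). Digested non-stripped aorta gave 2 TKO and 2 Cre single-cell libraries. The series title names a KLF10 and IL-9 axis in CD4+ T cells. The labels do not spell out the alleles behind TKO and Cre, the age of the mice, what stripping removed or how many animals a library holds. The samples of stripped aorta carry a title that says nonstripped, and their other labels, which were followed, say stripped.

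Notch receptors sit in the cell membrane and are switched on by ligands on a neighbouring cell. Cleavage by the gamma-secretase complex then frees the receptor's intracellular domain, which enters the nucleus and joins the DNA-binding protein RBPJ and Mastermind coactivators to switch on HES and HEY repressor genes. In arteries, DLL4 and NOTCH1 are known for arterial identity and for limiting endothelial sprouting, and JAG1 and NOTCH3 for signalling between endothelium and the mural cells (pericytes and smooth muscle) around it.

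Of the receptors, Notch1 lies at chr2:26457903-26516663 and Notch3 at chr17:32120820-32166852, both on the minus strand of GRCm38 (GENCODE vM21 annotation). The ligand genes are Jag1 (chr2:137081456-137116644, minus strand) and Dll4 (chr2:119325784-119335962, plus strand). Rbpj, the DNA-binding partner, lies at chr5:53466152-53657362 on the plus strand. The HEY and HES target genes, all transcriptional repressors, are Hey1 (chr3:8663359-8667256, minus strand), Hey2 (chr10:30832359-30842801, minus strand), Heyl (chr4:123233556-123249875, plus strand) and Hes1 (chr16:30064384-30067796, plus strand). Nrarp (chr2:25180758-25183339, plus strand) is a target gene whose product dampens Notch signalling. The deposited values are counts over each whole gene, so no value refers to 1 exon or isoform.

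RBPJ binds DNA at the letters TGGGAA, often preceded by G. Promoter windows from RefSeq (GRCm38.p6) each ran from 250 bases before a RefSeq start to 50 after it. That start can differ from the gene spans given above. The Notch1 window (chr2:26503773-26504072) and both Rbpj windows (chr5:53590096-53590395 and chr5:53590236-53590535) lie wholly inside those spans. Windows were at hand for 7 of the 10 members: Notch1, Notch3, Jag1, Dll4, Hey2, Rbpj with 2 windows, and Nrarp. Hey1, Heyl and Hes1 had none. The 2 target genes with a window are printed below without its last 40 bases, because Hey2 held the motif on both strands and Nrarp did not hold it. Both read 5′ to 3′ on the gene's own strand, and the capitals mark TGGGAA or, where the motif lies on the opposite strand, TTCCCA.
Hey2 (chr10:30842774-30843033, minus strand): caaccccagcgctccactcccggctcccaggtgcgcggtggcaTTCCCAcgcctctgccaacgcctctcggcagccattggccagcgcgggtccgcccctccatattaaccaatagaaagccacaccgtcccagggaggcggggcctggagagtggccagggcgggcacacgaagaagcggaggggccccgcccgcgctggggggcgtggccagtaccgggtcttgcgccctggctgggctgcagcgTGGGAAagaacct
Nrarp (chr2:25180508-25180767, plus strand): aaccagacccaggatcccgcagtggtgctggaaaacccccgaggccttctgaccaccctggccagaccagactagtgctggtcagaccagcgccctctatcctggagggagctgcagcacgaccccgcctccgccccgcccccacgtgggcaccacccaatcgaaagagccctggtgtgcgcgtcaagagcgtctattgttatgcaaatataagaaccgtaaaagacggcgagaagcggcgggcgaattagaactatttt
In Hey2 the opposite-strand copy begins 207 bases before the start and the same-strand copy 3 bases before it. Both Hey2 copies belong to the longer run GTGGGAA. In 1 Rbpj window TGGGAA lay 149 bases before the start on the same strand and 65 bases before it on the opposite strand. In the other Rbpj window it lay 205 bases before the start on the opposite strand. These 2 windows overlap, and the opposite-strand matches at 65 and 205 are the same bases of the genome. The windows of Notch1, Notch3, Jag1, Dll4 and Nrarp held none. Among all 32851 mouse promoter windows of 300 bases, 25.6% held TGGGAA on either strand, 3.79% held it at least 2 times, 6.38% held GTGGGAA and 0.256% held GTGGGAA at least 2 times, where GTGGGAA is counted again within TGGGAA. A match describes the letters only.

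Bulk libraries held 17179300 to 38633500 counts. Klf10, the gene in the series title, had 822, 696 and 0 counts in the 3 non-stripped TKO libraries, where a count of 0 allows up to 0.173 counts-per-million (CPM), against 1049, 943 and 1400 counts in non-stripped Cre. The non-stripped TKO replicate 3 thus stood apart from the other TKO libraries at this gene. The members' log2 fold changes in that table are given with and without that library where they move. In the other tables Klf10 was read in every TKO library, at 37.2 and 20.6 CPM in stripped TKO against 29.7 to 62.7 CPM in stripped Cre, and at 58.2 to 71.2 CPM in TKO fibroblasts against 60.9 to 73.2 CPM in Cre fibroblasts. Smooth muscle markers (7 genes, Myh11 and Acta2 among them) summed to 3676 to 7105 CPM in stripped aorta, and fibroblast markers (7 genes) to 21502 to 36364 CPM there. In isolated fibroblasts the same fibroblast markers summed to 2340 to 5516 CPM and 7 endothelial markers to 52.2 to 69.8 CPM. Adipocyte markers (7 genes) summed to 10536 to 12730 CPM in non-stripped aorta, and fewer in stripped aorta, at 1438 to 4885 CPM in a table normalized separately. In the single-cell libraries 15365 and 7425 TKO cells and 14489 and 6533 Cre cells passed the filters. The median cell had 1593 and 1409 unique molecular identifiers (UMIs) in the TKO libraries and 2768 and 1683 in the Cre libraries. Cre replicate 2 stood apart: 21.6% of its UMIs were mitochondrial, against 8.19% to 12.9% in the other libraries, and the limit of 15% per cell took its cells down to 6533, against 14054 before it. Any 2 libraries shared 12 to 68 of the kept cell barcodes.

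The first question was which aortic cells read each member. Cells were clustered without the Notch genes, and clusters were named by marker genes, so each class below means cells that look like the named type by their markers. The 16 classes with enough cells for every library held 23 to 4199 cells per library. Levels are UMI counts of a class scaled to CPM within that class, as the mean ± SD of the 4 libraries. The vascular classes, that is capillary, large-vessel and lymphatic endothelial-like cells, a mural class high in Rgs5 (a pericyte marker) and smooth muscle-like cells, made up 17.0% of cells and 18.5% of UMIs. They held 75.2% of Hey2 UMIs, 70.9% of Dll4, 65.8% of Nrarp, 62.5% of Notch3, 58.8% of Heyl, 56.6% of Hey1, 41.6% of Notch1, 33.5% of Hes1 and 31.5% of Jag1, but 8.97% of Rbpj UMIs. Clusters left unnamed lie outside these vascular shares. A cluster led by Gpihbp1 and Kdr (276 and 139 TKO and 162 and 109 Cre cells) scored highest as capillary endothelial. So did a cluster led by Gpihbp1 and Aqp7 (288 and 144 TKO and 88 and 77 Cre cells). The highest class was endothelial for 5 members, mural or smooth muscle for 4 and macrophage for 1. Mural cells read Rgs5 at 2923 and 3646 CPM in TKO and 4992 and 2398 CPM in Cre. Smooth muscle-like cells read it at 3315 and 2627 CPM in TKO and 3001 and 1262 CPM in Cre, an overlap. The smooth muscle marker Myh11 was at 2365 and 1176 CPM in TKO and 2327 and 841 CPM in Cre mural cells. Smooth muscle-like cells had Myh11 at 3411 and 2736.5 CPM in TKO and 4268 and 2613 CPM in Cre.

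Among the receptors, Notch1 stood at 283 and 238 CPM in TKO and 303 and 256 CPM in Cre lymphatic endothelial-like cells, a mean of 270 ± 28.6 CPM (SD, n = 4). Capillary (178 ± 59.4 CPM, n = 4) and large-vessel endothelial-like cells (165 ± 43.3 CPM, n = 4) followed. Neighbouring classes in the Notch1 order overlapped, down to 18.8 CPM in B cells, with 1 exception. Schwann cells (lowest 76.9 CPM) lay just above T cells (highest 76.4 CPM). Notch3 had a different place: 504 and 619 CPM in TKO and 790 and 381 CPM in Cre mural cells, a mean of 574 ± 174 CPM (n = 4) that carried 44.3% of its UMIs. Smooth muscle-like cells, next at 41.9 ± 24.4 CPM (n = 4), did not overlap with mural cells in any library. Of the receptors outside the 10 members, Notch4 was highest in capillary endothelial-like cells at 51.3 ± 14.6 CPM (n = 4), and Notch2 in neutrophils at 197 ± 57.0 CPM (n = 4).

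Of the ligands, Dll4 had 38.2 and 51.1 CPM in TKO and 86.5 and 41.1 CPM in Cre capillary endothelial-like cells, from 26 to 109 UMIs a library. Lymphatic endothelial-like cells, at 40.1 ± 7.21 CPM (n = 4), overlapped with capillary cells and lay above mural cells (18.2 ± 6.82 CPM, n = 4) in each library. Dll4 was at 0 UMIs in the small adipocyte class. Jag1 was spread more widely. Its highest level was in mural cells, at 149 and 220 CPM in TKO and 265 and 159 CPM in Cre, followed by large-vessel endothelial-like cells (124 ± 35.4 CPM, n = 4) and fibroblasts (95.6 ± 13.9 CPM, n = 4). Large-vessel cells overlapped with mural cells and with fibroblasts. Mural cells (lowest 149 CPM) lay above fibroblasts (highest 111 CPM) in every library. Fibroblasts, the most numerous class, held 46.2% of Jag1 UMIs. Of the other ligand genes, Dll1 was highest in large-vessel endothelial-like cells (44.2 ± 3.97 CPM, n = 4) and Jag2 in capillary endothelial-like cells (43.1 ± 22.1 CPM, n = 4).

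Among the target genes, Hey2, a repressor known for arterial fate, had 192 and 137 CPM in TKO and 225 and 173 CPM in Cre large-vessel endothelial-like cells. That class lay above smooth muscle-like cells (65.0 ± 9.74 CPM, n = 4) without overlap, whereas capillary endothelial-like cells averaged 2.30 CPM. Heyl was highest in smooth muscle-like cells, at 69.7 and 72.3 CPM in TKO and 93.5 and 55.7 CPM in Cre, and in mural cells, at 72.9 and 61.9 CPM in TKO and 138 and 17.7 CPM in Cre. Those 2 classes overlapped in Heyl, and the smooth muscle-like class held 45.7% of its UMIs. Hey1 stood at 28.9 and 12 CPM in TKO and 64.3 and 33.2 CPM in Cre capillary endothelial-like cells, which overlapped with lymphatic cells (33.4 ± 8.49 CPM, n = 4) and mural cells. Nrarp averaged 67.2 ± 23.2 CPM in mural cells and 43.4 ± 10.2 CPM in capillary endothelial-like cells (n = 4 each). Their ranges only just failed to overlap.

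Hes1, the most widely read target, averaged 576 ± 207 CPM in lymphatic endothelial-like, 431 ± 77.8 CPM in mural and 312 ± 123 CPM in capillary endothelial-like cells (n = 4 each). These 3 overlapped with each other and lay above fibroblasts (130 ± 25.4 CPM, n = 4). Rbpj was highest outside the vascular classes, with 459 and 341 CPM in TKO and 558 and 331 CPM in Cre macrophages. Dendritic cells (340 ± 84.8 CPM, n = 4) and neutrophils (246 ± 67.5 CPM, n = 4) came next and overlapped with their neighbours in the order.

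**Figure D1:**
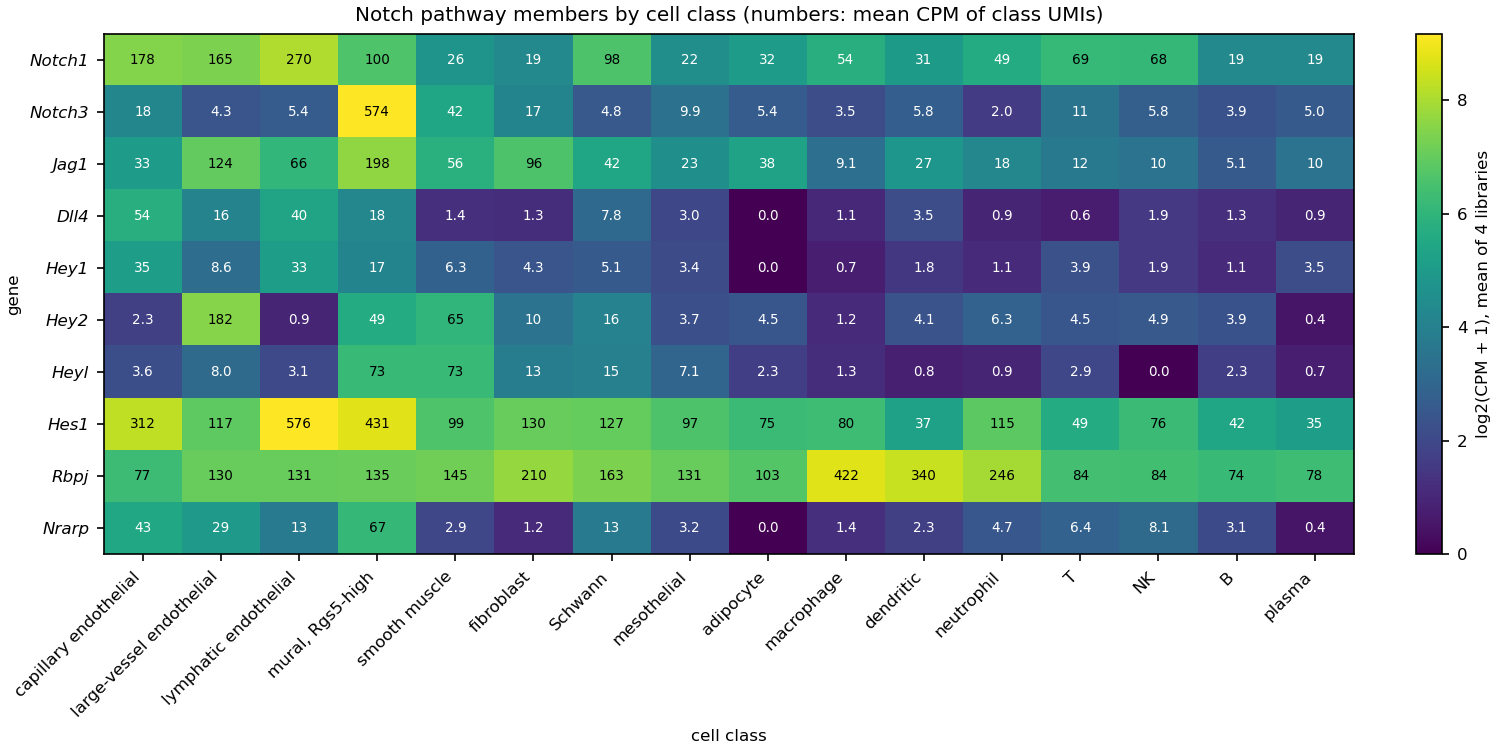
Mean CPM of the 10 members (rows) in 16 cell classes (columns), each the mean of 4 libraries, with colour on a log2(CPM + 1) scale and the mean CPM printed in each cell. Notch3 stands out in mural cells (574 CPM), Hey2 in large-vessel endothelial-like cells (182 CPM) and Rbpj in macrophages (422 CPM).

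Over the 64 sums of a class in a library, the genes most like each member among 8597 were found by Pearson's r of log2(CPM + 1). These points share libraries and depth, and the values are descriptive. Rgs5 and Cldn5 were among the markers that named the classes, so a high r with them partly restates the naming. Notch3 was most like Rgs5 (r = 0.84), Olfr78 (0.82) and Npy1r (0.78). Dll4 was most like Sox18 (0.85), Adgrf5 (0.85) and Cldn5 (0.84), and Nrarp like Sox17 (0.78), Arap3 (0.77) and Adgrf5 (0.77). Notch1 was most like Arap3 (0.76), Mmrn2 (0.74) and She (0.74), and Hey1 like Ephb4 (0.79), Rassf9 (0.79) and Dysf (0.78). Hey2 was most like Pde3a (0.76), Map1a (0.74) and Eln (0.74), the gene for elastin. Heyl was most like Map1a (0.84), Tpm1 (0.83) and Jph2 (0.83). Jag1 was most like Col4a2 (0.80), Ecm2 (0.79) and Fermt2 (0.78), and Hes1 like Gng11 (0.77), Rbms1 (0.75) and Btbd3 (0.75). Rbpj was most like Rab7b (0.88), Psap (0.85) and Pid1 (0.84). Between members, Dll4 and Hey1 had the highest r (0.72) and Rbpj and Nrarp the lowest (-0.11).

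In bulk libraries, levels between genes are compared per kilobase of exon. In non-stripped aorta Notch3 was first, at 6.06 CPM per kb in TKO and 7.65 in Cre, and Hey2 last, at 0.692 in TKO and 0.747 in Cre. In stripped aorta Heyl and Jag1 were the first 2, Heyl at 14.4 CPM per kb in TKO and 32.2 in Cre and Jag1 at 21.7 in TKO and 23.3 in Cre. Nrarp was last there, at 0.714 CPM per kb in TKO and 0.424 in Cre. Isolated fibroblasts read mainly Hes1 (14.8 CPM per kb in TKO, 16 in Cre), Rbpj (10.4 in TKO, 10.5 in Cre) and Jag1 (9.71 in TKO, 14.5 in Cre), with Dll4 at 0.138 in TKO and 0.0853 in Cre. The tables were normalized separately, and tissue and table cannot be told apart, so no test was made between tissues.

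**Figure D2:**
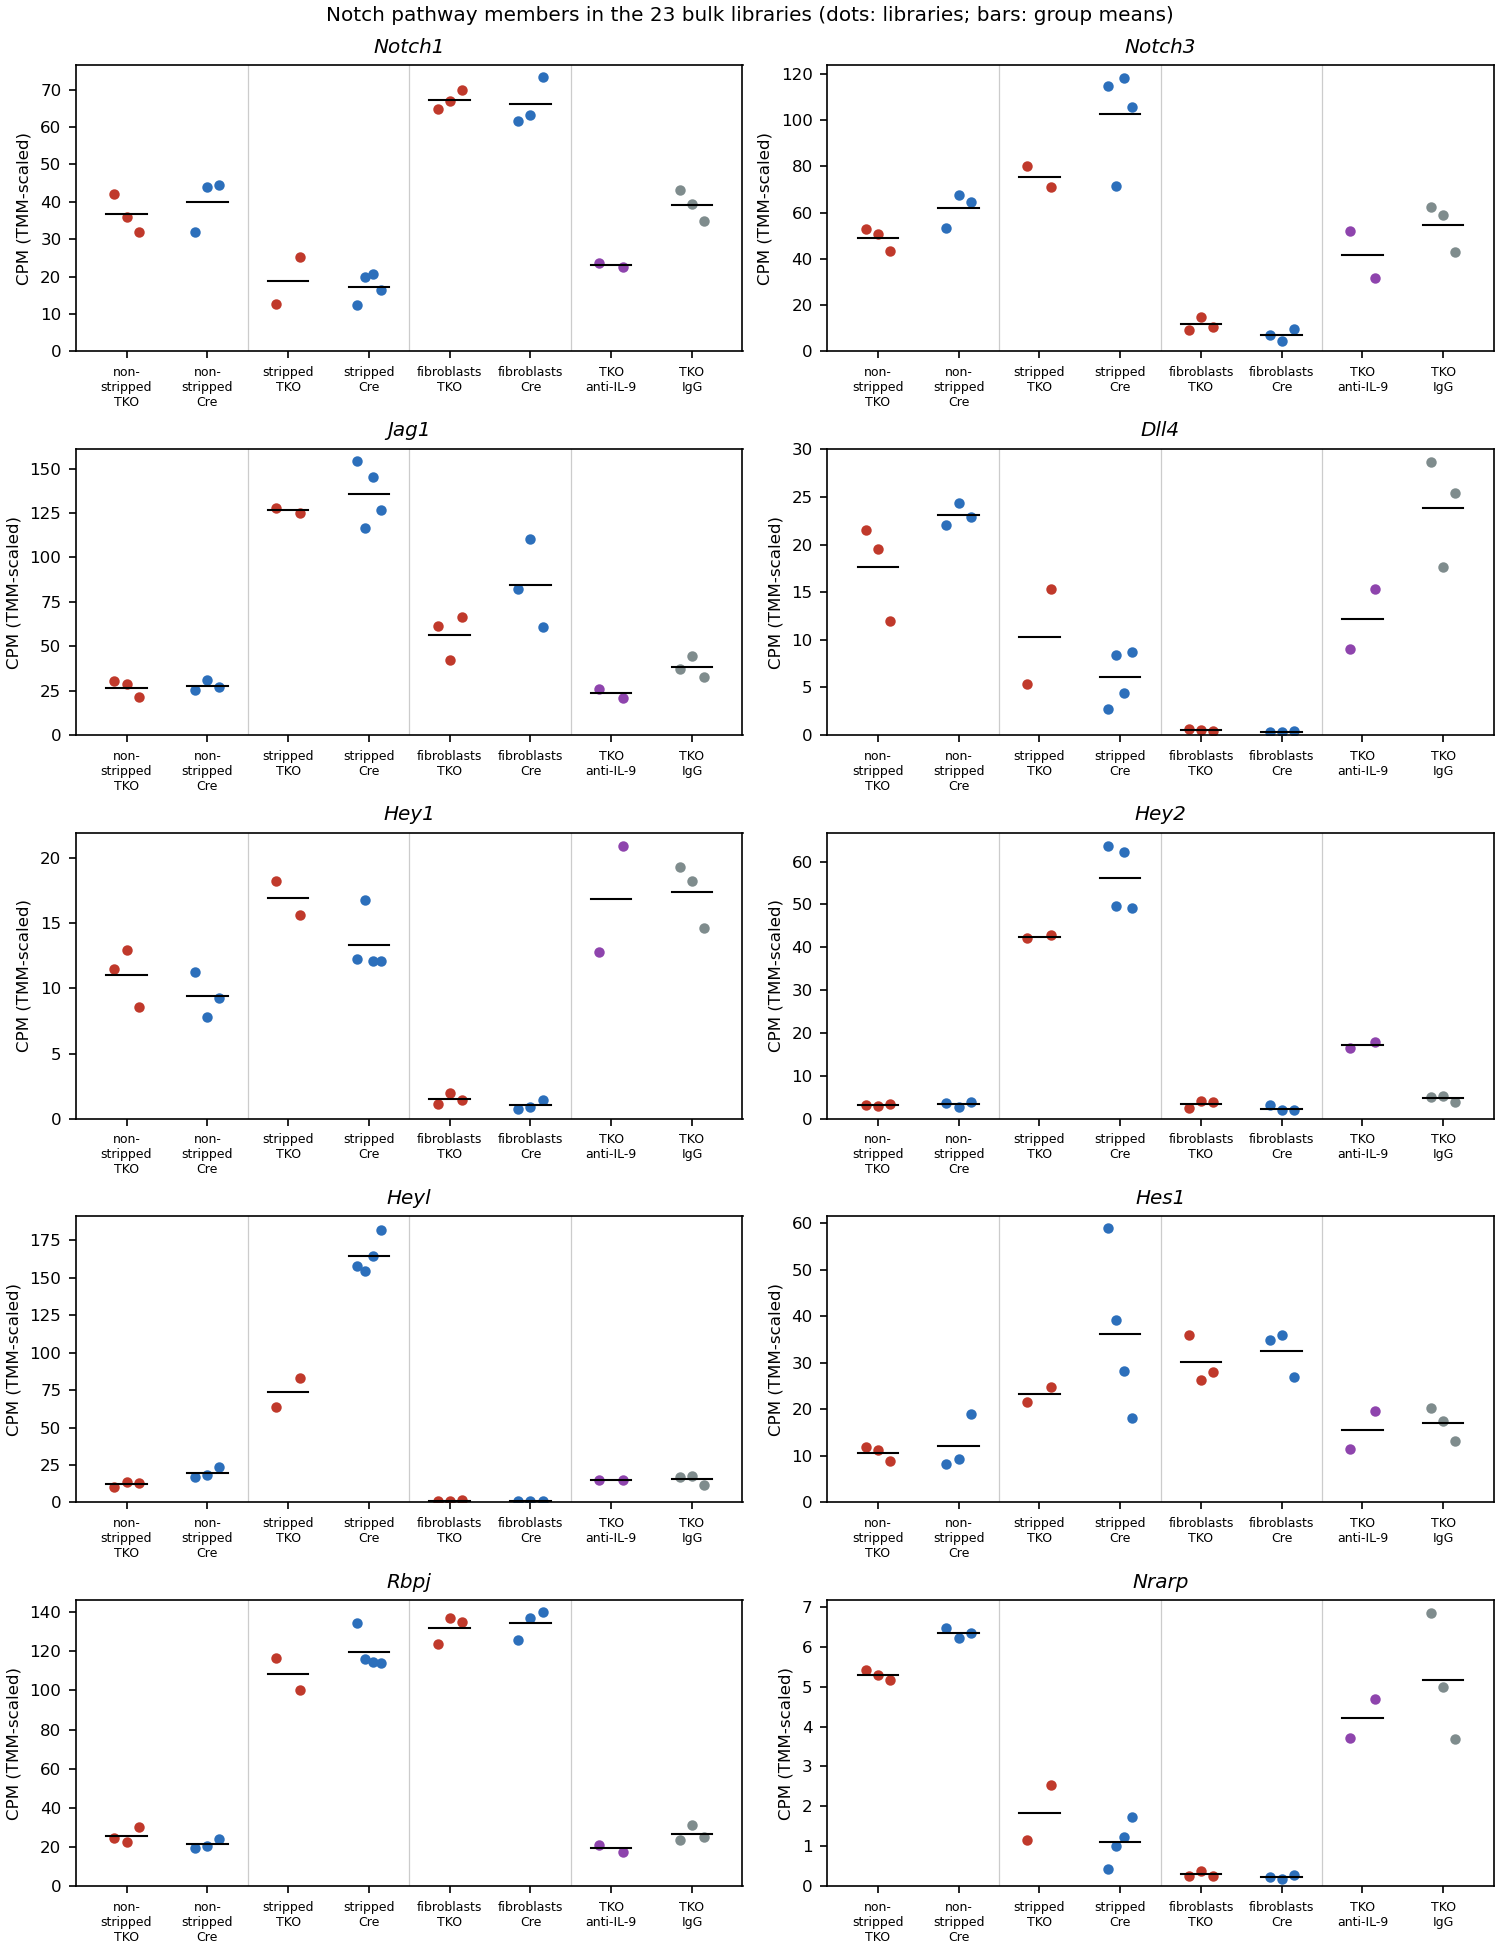
TMM-scaled CPM of each member in the 23 bulk libraries (dots) with group means (bars); vertical lines part the 4 tables, which were normalized separately. In stripped aorta the 2 TKO libraries have Heyl at 63.6 and 83.3 CPM, below all 4 Cre libraries, and in the antibody table the 2 anti-IL-9 libraries have Hey2 at 16.5 and 17.8 CPM, above all 3 IgG libraries.

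The next question was whether TKO differed from Cre in non-stripped aorta. No member passed the threshold, an adjusted p under 0.05 over all genes in edgeR's quasi-likelihood test, where 0.119% of the 15162 genes tested passed. At an unadjusted p under 0.05 there were 0 members higher and 2 lower, against 17.9% of all genes in either direction, and DESeq2 called 1, Heyl, among the 796 of 15162 genes it called. Heyl had 10.6, 13.8 and 13.1 CPM in TKO, against 17.3, 18.4 and 23.6 CPM in Cre. The groups did not overlap, and the log2 fold change was -0.66 ± 0.16 (SE) with an edgeR adjusted p of 0.0888. That adjusted p ran from 0.0129 with DESeq2 to 0.273 when 1 library was left out.

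Besides Heyl, 3 members had TKO values wholly below Cre, so 4 in all with none above, against 10.6% of all genes below and 14.9% above. Notch3 was at 52.7, 50.8 and 43.5 CPM in TKO and 53.4, 67.7 and 64.6 CPM in Cre (edgeR log2 fold change -0.34 ± 0.12, adjusted p = 0.199). The highest TKO and lowest Cre libraries nearly met. Dll4 was at 21.5, 19.5 and 12 CPM in TKO and 22.0, 24.4 and 22.9 CPM in Cre (-0.38 ± 0.20), and its low point was TKO replicate 3. Without that library the Dll4 log2 fold change was -0.17, while Heyl kept -0.70 and Notch3 -0.26. Nrarp was at 5.42, 5.28 and 5.17 CPM in TKO and 6.47, 6.22 and 6.33 CPM in Cre (-0.26 ± 0.13), a small gap between tight groups.

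Rbpj overlapped, at 24.7, 22.4 and 30.5 CPM in TKO and 19.3, 20.3 and 24.3 CPM in Cre (0.28 ± 0.15). The remaining 5, Notch1, Jag1, Hey1, Hey2 and Hes1, overlapped too, with log2 fold changes between -0.19 and 0.22. Without TKO replicate 3 the Rbpj log2 fold change was 0.15. Notch1 then went from -0.13 to -0.03 and Jag1 from -0.05 to 0.09. Hey1 moved from 0.22 to 0.36, Hey2 from -0.12 to -0.17 and Hes1 from -0.19 to -0.08. With all libraries kept, the members' median was -0.16, beside -0.02 for all genes. In the same libraries the 7 endothelial markers summed to 521 to 584 CPM in TKO and 677 to 753 CPM in Cre, and 7 of 7 had a negative log2 fold change (median -0.42, none called). The 7 smooth muscle markers summed to 360.3 to 1073 CPM in TKO and 421 to 596 CPM in Cre, where 5 of the 6 tested had a negative log2 fold change (median -0.94, none called). The 7 pericyte markers summed to 605 to 656 CPM in TKO and 645 to 689.9 CPM in Cre, with 6 of 7 negative (median -0.30, none called). Skeletal muscle markers, which a dissection can carry along, summed to 3073 to 12492 CPM in TKO and 317 to 1019 CPM in Cre. The part of these marker sums in the members' values was not tested. In bulk tissue, fewer cells of a type and less RNA per cell cannot be told apart.

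In stripped aorta no member passed either, where 0.024% of 16688 genes did. Again 0 were higher and 2 lower at an unadjusted p under 0.05, against 13.8% of all genes, and DESeq2 called 1, Heyl, among the 577 of 16688 genes it called. Heyl had 63.6 and 83.3 CPM in TKO, against 158, 154, 164 and 182 CPM in Cre. Every TKO value was below every Cre value by a wide gap, and the log2 fold change was -1.16 ± 0.14 with an edgeR adjusted p of 0.0718. Its range over the alternatives was 5.01e-11 (DESeq2) to 0.234 (1 library left out). Hey2 was at 42.1 and 42.8 CPM in TKO and at 63.7, 49.6, 62.2 and 49.3 CPM in Cre, also without overlap (-0.40 ± 0.14, edgeR adjusted p = 0.275). These 2 of 10 members lay below and none above, against 11.6% of all genes below and 12% above.

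The other 8 members overlapped between stripped TKO and Cre. Notch3 had 80.1 and 71.1 CPM in TKO and 115, 71.4, 118 and 106 CPM in Cre (-0.44 ± 0.20), with Cre replicate 2 at the level of TKO. Hes1 had 21.7 and 24.8 CPM in TKO and 59.0, 39.2, 28.3 and 18.1 CPM in Cre, so the Cre libraries spread around both TKO values. Dll4 had 5.37 and 15.3 CPM in TKO and 2.70, 8.38, 4.41 and 8.74 CPM in Cre, and Notch1 12.6 and 25.1 CPM in TKO and 12.4, 19.8, 20.7 and 16.4 CPM in Cre. For both genes the 2 TKO libraries differed from each other by more than the group means did. Jag1 had 128 and 125 CPM in TKO, within the Cre values of 154, 116, 146 and 127 CPM. The 7 smooth muscle markers summed to 3676 to 5638 CPM in TKO and 6046 to 7105 CPM in Cre, and 7 of 7 had a negative log2 fold change (median -0.58, none called). In the same libraries 7 capillary endothelial markers summed to 880 to 1560 CPM in TKO and 269 to 657 CPM in Cre, and 7 adipocyte markers to 3492 to 4885 CPM in TKO and 1438 to 2572 CPM in Cre. The 9 large-vessel endothelial markers summed to 1606 to 1811 CPM in TKO and 1591 to 2567 CPM in Cre, an overlap (median -0.17, none called). The part of these marker sums in the Heyl and Hey2 values was not tested.

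**Figure D3:**
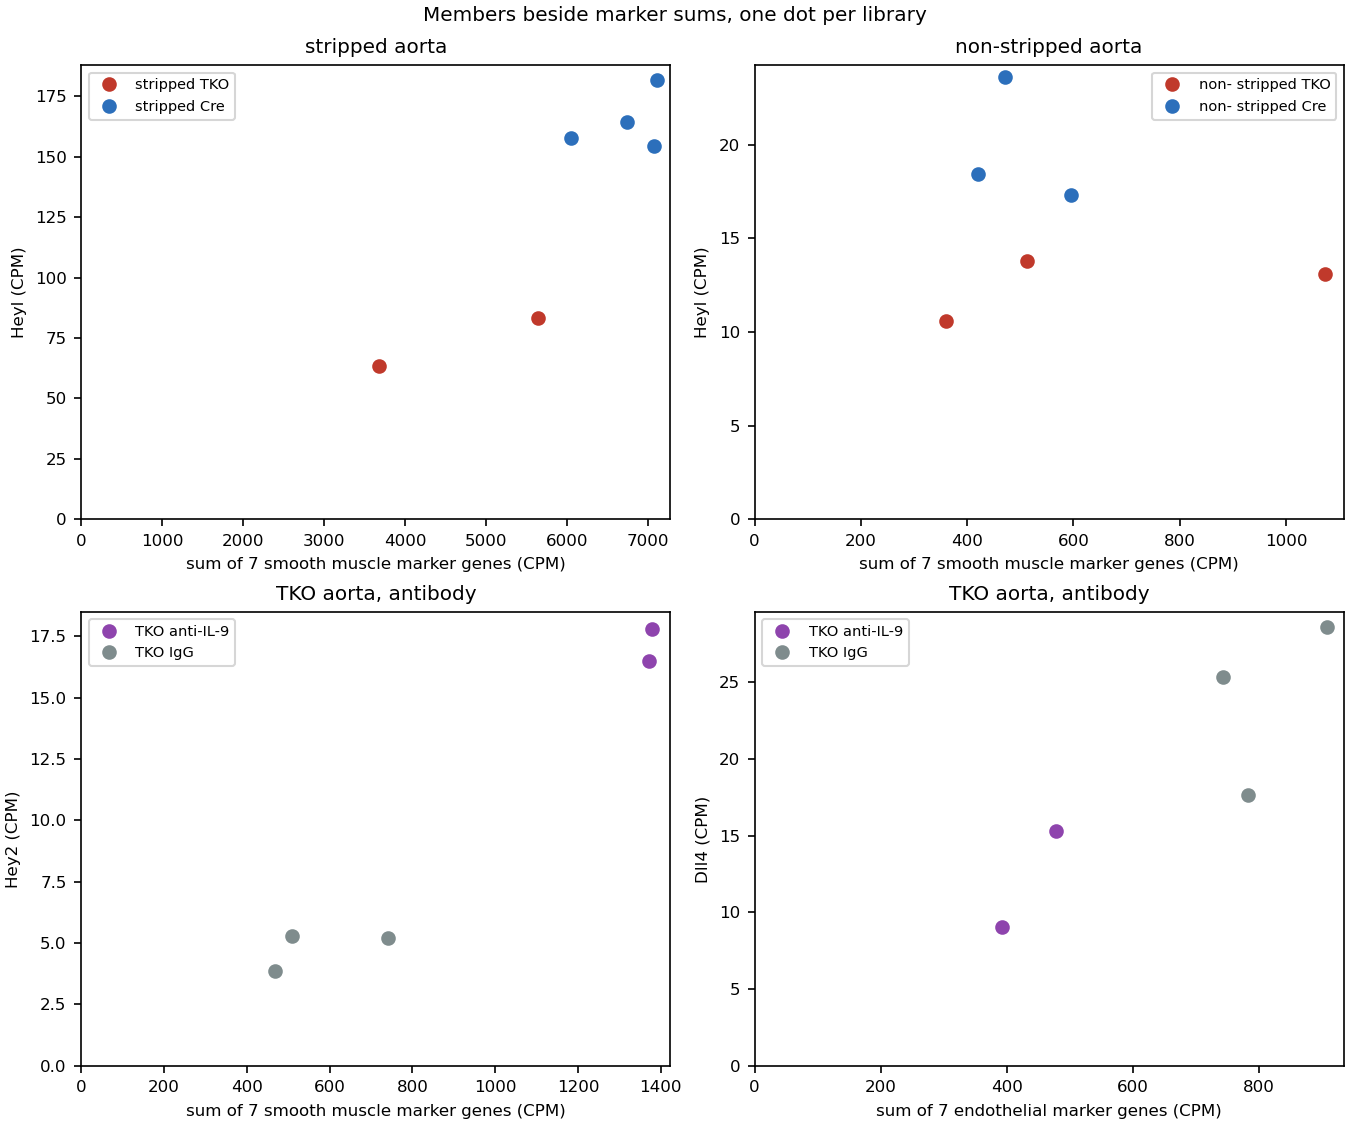
CPM of a member (vertical) against the sum of 7 marker genes (horizontal, CPM), 1 dot per library, for Heyl in stripped and non-stripped aorta with smooth muscle markers, and for Hey2 with smooth muscle and Dll4 with endothelial markers in the antibody table. In stripped aorta both the Heyl values and the smooth muscle sums of the 2 TKO libraries (3676 and 5638 CPM) lie below those of the 4 Cre libraries. Markers of large-vessel endothelial-like cells, the class where Hey2 was highest, are not drawn.

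Whether the genotype effect differed between stripped and non-stripped aorta was tested as the difference of the 2 log2 fold changes in 1 fit. No member passed in edgeR, where 0.00571% of 17501 genes did, and 0 members were higher and 2 lower at an unadjusted p under 0.05, against 18.2% of all genes. DESeq2 called none of the members. For Heyl the difference was -0.50 ± 0.21 (edgeR adjusted p = 0.227, between 0.182 and 0.485 over the alternatives), so the size of the Heyl gap is not shown to differ between the tissues. For Rbpj it was -0.42 ± 0.19 (edgeR adjusted p = 0.273).

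In isolated aortic fibroblasts 9 members passed the filter on low counts, and none passed the test in edgeR, where 0.0638% of 15673 genes did. DESeq2 called none either, and 1 member was higher and 1 lower at an unadjusted p under 0.05, against 12.1% of all genes. Nrarp did not pass the filter, with 9, 12 and 9 counts in TKO and 9, 6 and 8 counts in Cre. Notch3 had 9.34, 15 and 10.5 CPM in TKO and 7.01, 4.33 and 9.53 CPM in Cre (0.74 ± 0.29, edgeR adjusted p = 0.373). Jag1 had 61.2, 42.4 and 66.2 CPM in TKO and 82.2, 110 and 60.9 CPM in Cre (-0.58 ± 0.23, edgeR adjusted p = 0.375). Both genes overlapped between the genotypes. Dll4, at 22, 18 and 14 counts in TKO and 11, 10 and 11 counts in Cre, was the 1 member whose TKO values all lay above Cre (0.69 ± 0.33), against 8.86% of all genes. None lay below, against 8.45% of all genes. Notch1 stood at 64.7, 66.9 and 69.8 CPM in TKO and 61.7, 63.1 and 73.4 CPM in Cre, and Rbpj at 124, 137 and 135 CPM in TKO and 126, 137 and 140 CPM in Cre. Those 2 differed by less than the spread between libraries. Macrophage markers (7 genes) summed to 133 to 181 CPM in TKO and 217 to 503 CPM in Cre fibroblasts, and 7 of 7 had a negative log2 fold change (median -1.11, none called). Capillary endothelial markers (7 genes) summed to 79.9 to 115 CPM in TKO and 131 to 350 CPM in Cre, although 4 of the 6 tested had a positive log2 fold change (median 0.15, none called). Smooth muscle markers (7 genes) summed to 1810 to 2267 CPM in TKO and 1051 to 1981 CPM in Cre, with 6 of 7 positive (median 0.58, none called), and pericyte markers (7 genes) to 409.7 to 517 CPM in TKO and 341 to 493 CPM in Cre, with 5 of 6 tested positive (median 0.29, none called). The part of these sums in the Notch3, Jag1 and Dll4 values was not tested.

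In non-stripped TKO aorta, the antibody comparison changed 4 members. Hey2 rose in anti-IL-9 libraries, and Notch1, Jag1 and Dll4 fell. This stood against a background of 32.1% of 16463 genes called, 21% higher and 11% lower, and the 4 of 10 members are read against it. Hey2 had 16.5 and 17.8 CPM with anti-IL-9, against 5.19, 5.28 and 3.88 CPM with IgG. Its log2 fold change was 1.83 ± 0.19 (edgeR adjusted p = 0.0005), and Hey2 was called under every alternative run (adjusted p 3.23e-15 to 0.00489, edgeR or DESeq2).

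Notch1 had 23.5 and 22.4 CPM with anti-IL-9, against 43.2, 39.5 and 34.8 CPM with IgG (-0.77 ± 0.13, edgeR adjusted p = 0.0053, called under every alternative run). Jag1 had 26.1 and 20.7 CPM with anti-IL-9, against 37.2, 44.7 and 32.5 CPM with IgG (-0.70 ± 0.18, edgeR adjusted p = 0.0235). That call was lost without anti-IL-9 replicate 2, at an edgeR adjusted p of 0.101 in a range that began at 0.000116. Dll4 had 9.08 and 15.3 CPM with anti-IL-9, against 28.6, 17.6 and 25.4 CPM with IgG (-0.97 ± 0.29, edgeR adjusted p = 0.0392). The Dll4 call was lost without IgG replicate 1 (edgeR adjusted p = 0.0938), without IgG replicate 3 (0.109), without anti-IL-9 replicate 1 (0.172) and in the fit of all 23 libraries (0.0788), in a range that began at 7.42e-07. In each of the 4 genes every anti-IL-9 value lay on 1 side of every IgG value.

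Rbpj, at 21.3 and 17.6 CPM with anti-IL-9 and 23.6, 31.4 and 25.1 CPM with IgG, did not overlap either and was not called (-0.46 ± 0.17, edgeR adjusted p = 0.0809). Thus 1 member lay above and 4 below, against 32.1% of all genes above and 27.7% below. Notch3, Hey1, Heyl, Hes1 and Nrarp overlapped between the antibodies, with log2 fold changes between -0.39 and -0.05. Heyl, for instance, was at 14.7 and 14.7 CPM with anti-IL-9 and at 17.1, 17.9 and 11.5 CPM with IgG. The members' median was -0.35, beside -0.01 for all genes.

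Marker genes of many cell types moved in the same libraries. The 7 endothelial markers summed to 392.02 to 477 CPM with anti-IL-9 and 743 to 908 CPM with IgG, and 6 of 7 fell (median log2 fold change -0.89). The 7 capillary endothelial markers summed to 1036 to 1374 CPM with anti-IL-9 and 2127 to 2591 CPM with IgG, and 7 of 7 fell, and 4 of 7 pericyte markers fell. The 7 smooth muscle markers summed to 1371 to 1378 CPM with anti-IL-9 and 467 to 742 CPM with IgG, and 6 of 7 rose (median 1.24). Large-vessel endothelial-like cells were the class where Hey2 was highest. The 9 markers of that class summed to 195 to 218 CPM with anti-IL-9 and 317 to 368 CPM with IgG. Of these 9 markers 3 fell and 1 rose (median -0.75). All 8 sympathetic neuron markers, a list added after its values were seen, rose, with sums of 4562 to 5217 CPM with anti-IL-9 and 263 to 630 CPM with IgG. All 6 mesothelial markers fell, to sums of 4.26 to 7.0 CPM with anti-IL-9, against 133 to 305 CPM with IgG, and so did 7 of 7 fibroblast and 7 of 7 macrophage markers. The part of these sums in the members' values was not tested, and tissue makeup and expression per cell cannot be told apart here.

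**Figure D4:**
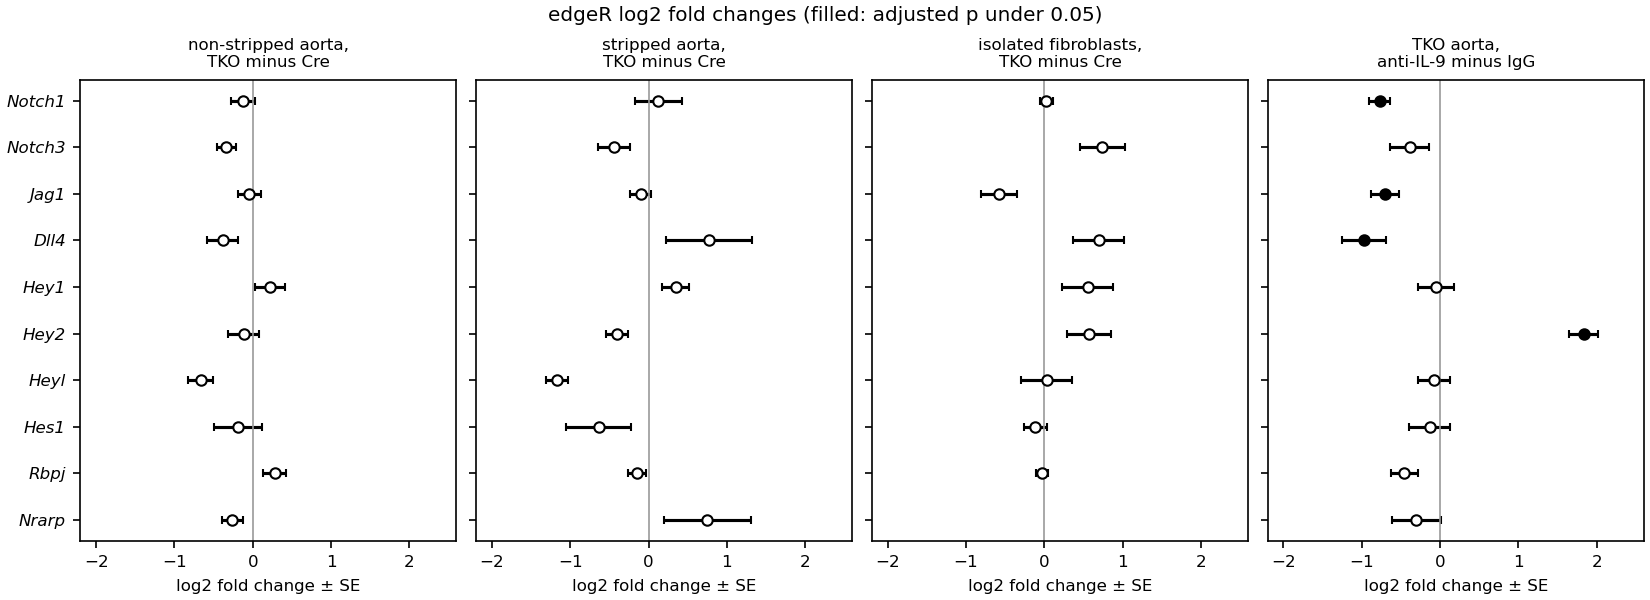
edgeR log2 fold changes ± SE of the members in the 4 bulk comparisons (TKO minus Cre 3 times, then anti-IL-9 minus IgG); filled points have an adjusted p under 0.05, and Nrarp is missing in fibroblasts because it failed the filter. The only filled points are in the antibody panel: Hey2 at 1.83, Notch1 at -0.77, Jag1 at -0.70 and Dll4 at -0.97.

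Other genes of the pathway (a list of 49: receptors, ligands, proteases, glycosyltransferases, cofactors and regulators) were followed in the same fits. In edgeR, none of 43 tested was called in non-stripped aorta (4 higher and 3 lower at an unadjusted p under 0.05; median log2 fold change -0.08), none of 44 in stripped aorta (3 higher and 1 lower; 0.02) and none of 44 in fibroblasts (1 higher and 4 lower; 0.01). DESeq2 called 2 of them higher in non-stripped aorta (Itch and Neurl1a), 1 higher in stripped aorta (Mfng) and 1 lower in fibroblasts (Neurl3). Over all genes, 17.9%, 13.8% and 12.1% had an unadjusted edgeR p under 0.05 in non-stripped aorta, stripped aorta and fibroblasts. DESeq2 called 796 of 15162, 577 of 16688 and 417 of 15673 genes there. The 3 genes with the smallest p are named in each tissue. In non-stripped aorta they were Itch, a ubiquitin ligase, at 39.6 ± 1.59 CPM in TKO and 29.3 ± 1.30 CPM in Cre (SD, n = 3 each; edgeR adjusted p = 0.0745), Neurl1a (log2 fold change 1.53) and the receptor protease gene Adam10 (0.33). Neurl1a averaged 20.8 ± 13.1 CPM in TKO and 7.18 ± 0.80 CPM in Cre (n = 3 each; edgeR adjusted p = 0.0966). Without TKO replicate 3 its log2 fold change was 0.88 and edgeR called it (adjusted p = 0.0354, in a range over the alternatives of 0.00049 to 0.294). In stripped aorta they were Mfng, a glycosyltransferase that modifies the receptors, at 20.3 ± 0.214 CPM in TKO (n = 2) and 10.1 ± 2.52 CPM in Cre (n = 4; edgeR adjusted p = 0.191), Cir1 (0.32) and Spen (-0.49), the last 2 being corepressors. In fibroblasts they were Neurl3, at 3.98 ± 0.101 CPM in TKO and 6.84 ± 1.75 CPM in Cre (n = 3 each; edgeR adjusted p = 0.25), the acetyltransferase gene Kat2b (0.40) and the receptor-processing protease gene Furin (-0.24).

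With anti-IL-9, 12 of 45 tested pathway genes rose and 7 fell, beside 21% and 11% of all genes. The largest rises were Dner, a neuronal Notch ligand, at 81.1 ± 3.61 CPM with anti-IL-9 (n = 2) and 9.06 ± 1.67 CPM with IgG (n = 3), and Neurl1a, a ubiquitin ligase that acts on ligands, at 52.7 ± 10.8 CPM with anti-IL-9 and 5.29 ± 1.82 CPM with IgG. Dtx1 (2.39 on the log2 scale), Maml3 (1.69), Dlk2 (1.31), Numbl (1.03), Hes6 (0.91), Poglut1 (0.68), Fbxw7 (0.63), Dtx4 (0.50) and Psen2 (0.46) rose as well. The genes that fell were Mfng (-1.36) and Lfng (-1.06), which modify the receptors, the endothelial receptor gene Notch4 (-0.90, to 36.8 ± 13.7 CPM against 68.6 ± 5.06 CPM with IgG), Adam17 (-0.61), a protease that can cut the receptors, Dtx2 (-0.60), Neurl1b (-0.51) and Kat2b (-0.43). Of these 19 calls, 10 held under every alternative run: Adam17, Dner, Dtx1, Hes6, Lfng, Maml3, Mfng, Neurl1a, Numbl and Poglut1. In the single-cell libraries Dner had 100 UMIs and Neurl1a 262 UMIs over all kept cells.

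Endothelial gene lists gave the vessel context. In non-stripped aorta edgeR called none of 15 arterial genes (2 higher and 3 lower at an unadjusted p under 0.05), none of 6 venous genes (0 and 0) and none of 8 tip cell genes (0 higher and 3 lower), tip cells being those that lead a sprout. DESeq2 called 1 arterial gene lower (Epas1), no venous gene and 1 tip cell gene lower (Kdr) there. Over all genes there, 17.9% had an unadjusted edgeR p under 0.05, and DESeq2 called 796 of 15162. The log2 fold changes with the smallest p there were those of Epas1 (-0.37), Nrp1 (0.36) and Cxcr4 (0.46) among arterial, Ephb4 (-0.22), Nr2f2 (-0.14) and Selp (0.24) among venous and Kdr (-0.44), Flt4 (-0.47) and Pdgfb (-0.43) among tip cell genes. In stripped aorta 1 of 15 arterial genes was called by edgeR, beside 0.024% of all genes. Over all genes there, 13.8% had an unadjusted edgeR p under 0.05, and DESeq2 called 577 of 16688. Unc5b, a netrin receptor, fell to 32.1 ± 1.39 CPM in TKO (n = 2), against 72.1 ± 3.80 CPM in Cre (n = 4), a log2 fold change of -1.17 ± 0.09 (edgeR adjusted p = 0.0209). That call was lost without Cre replicate 2 (edgeR adjusted p = 0.107), Cre replicate 3 (0.0884) or TKO replicate 2 (0.0891), in a range that began at 1.19e-19, while the log2 fold change stayed at -1.18, -1.14 and -1.12. Venous Nrp2 (0.52), Ackr1 (0.66) and Aplnr (0.84) and tip cell Flt1 (0.73), Angpt2 (-0.44) and Vegfa (0.43) had the smallest p of their lists there and were not called, with 0 venous genes and 1 higher and 1 lower tip cell gene at an unadjusted p under 0.05 and none called in either list by DESeq2. In fibroblasts none of 14 arterial (Igfbp3 -0.86, Fbln5 0.31, Sema3g 0.55), 6 venous (Nrp2 -0.36, Aplnr 1.18, Ephb4 0.08) or 8 tip cell genes (Angpt2 0.50, Vegfa -0.49, Apln 0.40) was called by edgeR, with 3 and 2, 0 and 1, and 1 and 1 genes higher and lower at an unadjusted p under 0.05. DESeq2 called Igfbp3 lower and Angpt2 higher there. Over all genes in fibroblasts, 12.1% had an unadjusted edgeR p under 0.05, and DESeq2 called 417 of 15673. The 7 endothelial markers together summed to 52.2 to 69.8 CPM there. Vegfa alone averaged 268 CPM in TKO and 376 CPM in Cre fibroblasts, and Fbln5 94.9 and 76.4 CPM, whereas Sema3g averaged 3.20 and 2.19 CPM. In fibroblasts these lists are thus not a reading of endothelial cells alone.

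With anti-IL-9, where 11% of all genes fell and 21% rose, 7 of 15 arterial genes fell: Sox17 (-0.93) and Sox18 (-1.08), transcription factors of endothelium, Efnb2 (-0.49), Nrp1 (-0.52), Epas1 (-0.73), Sema3g (-1.01) and Vegfc (-1.62), and 2 rose, Cxcr4 (2.82) and Unc5b (1.14). Of 6 venous genes 3 fell, Ephb4 (-0.95), Selp (-1.63) and Aplnr (-1.24), and Ackr1 rose (2.67). Of 8 tip cell genes, Kdr (-0.94), Flt4 (-1.10) and Vegfa (-0.53) fell and none rose. Under every alternative run, 4 of the 9 arterial calls (Cxcr4, Epas1, Sema3g, Unc5b), 2 of the 4 venous calls (Ackr1, Ephb4) and 2 of the 3 tip cell calls (Flt4, Kdr) held. Arterial, venous and tip cell lists had medians of -0.73, -0.75 and -0.72, beside the endothelial marker sums given above.

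In the single-cell libraries, TKO was compared with Cre within each class on summed UMIs (2 libraries each). Of 160 pairs of a member and a class, 72 passed the filter on low counts. None was called by edgeR, where 0.111% of 102756 tests over all genes and classes passed, and none by DESeq2, while 5 were higher and 4 lower at an unadjusted p under 0.05. Those 9 pairs were 12.5% of the 72 tests. The share of all genes at that cutoff was not counted, so the 9 pairs cannot be set against it. In 13 pairs both TKO values lay above both Cre values and in 10 below, against 14.8% and 14.1% of all tests. Pairs picked by their unadjusted p lie apart by genotype in part because of that choice. The values that follow are TMM-scaled CPM of class UMIs.

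Notch3 in smooth muscle-like cells had 61.1 and 61.2 CPM in TKO, against 27.6 and 15.8 CPM in Cre (log2 fold change 1.37 ± 0.31, edgeR adjusted p = 0.879). This class also read Rgs5, the mural marker, at 3315 and 2627 CPM in TKO and 3001 and 1262 CPM in Cre, and its 7 pericyte markers summed to 3830 and 3107 CPM in TKO and 3609 and 1669 CPM in Cre. In fibroblasts Notch3 had 22.5 and 19.0 CPM in TKO and 12.9 and 11.3 CPM in Cre (0.77 ± 0.24), beside Rgs5 at 199 and 148 CPM in TKO and 93.8 and 92.4 CPM in Cre. The fibroblast class joins clusters of unequal share: the cluster led by Thbs4 held 974 and 367 TKO cells and 80 and 53 Cre cells, and the cluster led by Penk 199 and 38 TKO cells and 1161 and 34 Cre cells. Likewise, the macrophage cluster led by Hal held 703 and 297 TKO cells and 1999 and 182 Cre cells, and the dendritic cluster led by Ccl22 429 and 35 TKO cells and 28 and 78 Cre cells. The part of mural RNA or cells in both was not tested.

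Hes1 in T cells had 26.7 and 28.3 CPM in TKO, against 76.3 and 67.7 CPM in Cre (-1.43 ± 0.33, edgeR adjusted p = 0.121). In macrophages Hes1 had 63.6 and 69.6 CPM in TKO and 87.2 and 101 CPM in Cre (-0.49 ± 0.20). Both classes had the 4 libraries apart by genotype. The 7 fibroblast markers read in T cells summed to 2716 and 1956 CPM in TKO and 322 and 1033 CPM in Cre, and in macrophages to 1616 and 1033 CPM in TKO and 192 and 408 CPM in Cre.

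Jag1 had 50.2 and 27.6 CPM in TKO dendritic cells, against 11.1 and 18.0 CPM in Cre (1.60 ± 0.48, edgeR adjusted p = 0.228). In macrophages Jag1 had 14.3 and 10.3 CPM in TKO and 5.36 and 6.18 CPM in Cre (1.15 ± 0.35), and in mesothelial-like cells 32.5 and 34.4 CPM in TKO and 15.2 and 7.70 CPM in Cre (1.40 ± 0.60). Jag1 was thus higher in both TKO libraries of each class. Fibroblasts hold the largest share of Jag1 UMIs, and their 7 markers summed to 2826 and 1781 CPM in TKO and 320 and 873 CPM in Cre dendritic cells. Whether these fibroblast transcripts account for any of the Jag1 or Hes1 values was not tested.

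In capillary endothelial-like cells Hey1 had 27.5 and 12.2 CPM in TKO and 62.5 and 35.3 CPM in Cre (-1.27 ± 0.44). In mural cells Notch1 had 68.1 and 76.5 CPM in TKO and 128 and 130 CPM in Cre (-0.85 ± 0.36). Neither passed, and Dll4 in capillary endothelial-like cells overlapped, at 36.3 and 51.9 CPM in TKO and 84.1 and 43.8 CPM in Cre. Without Cre replicate 2, the library with the high mitochondrial share, edgeR called Notch3 in smooth muscle-like cells (adjusted p = 0.0297), Hes1 in T cells (0.0093) and Hey1 in capillary endothelial-like cells (0.00258), with Cre then resting on 1 library taken to vary like the TKO pair. Notch3 in macrophages, a pair below the filter when all 4 libraries are used, was also called then (log2 fold change 2.71, edgeR adjusted p = 0.0447). Macrophages had Notch3 at 6.79 and 3.26 CPM in TKO and 0.794 and 3.09 CPM in Cre, beside Rgs5 at 110.2 and 67.1 CPM in TKO and 28.1 and 56.7 CPM in Cre. In that setting 4163 tests over all genes and classes passed, against 114 with all 4 libraries. edgeR also called Notch3 in smooth muscle-like cells without Cre replicate 1 (adjusted p = 0.0125) and Jag1 in dendritic cells without TKO replicate 2 (0.0176). Over all genes and classes 483 and 944 tests passed in those settings. Over all alternatives the adjusted p of Notch3 in smooth muscle-like cells, Hes1 in T cells, Hey1 in capillary endothelial-like cells and Jag1 in dendritic cells reached 1.00 each (edgeR or DESeq2). Heyl in smooth muscle-like cells, the class where it is highest, overlapped between the genotypes. Other pathway genes gave no edgeR call in any of the 16 classes.

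**Figure D5:**
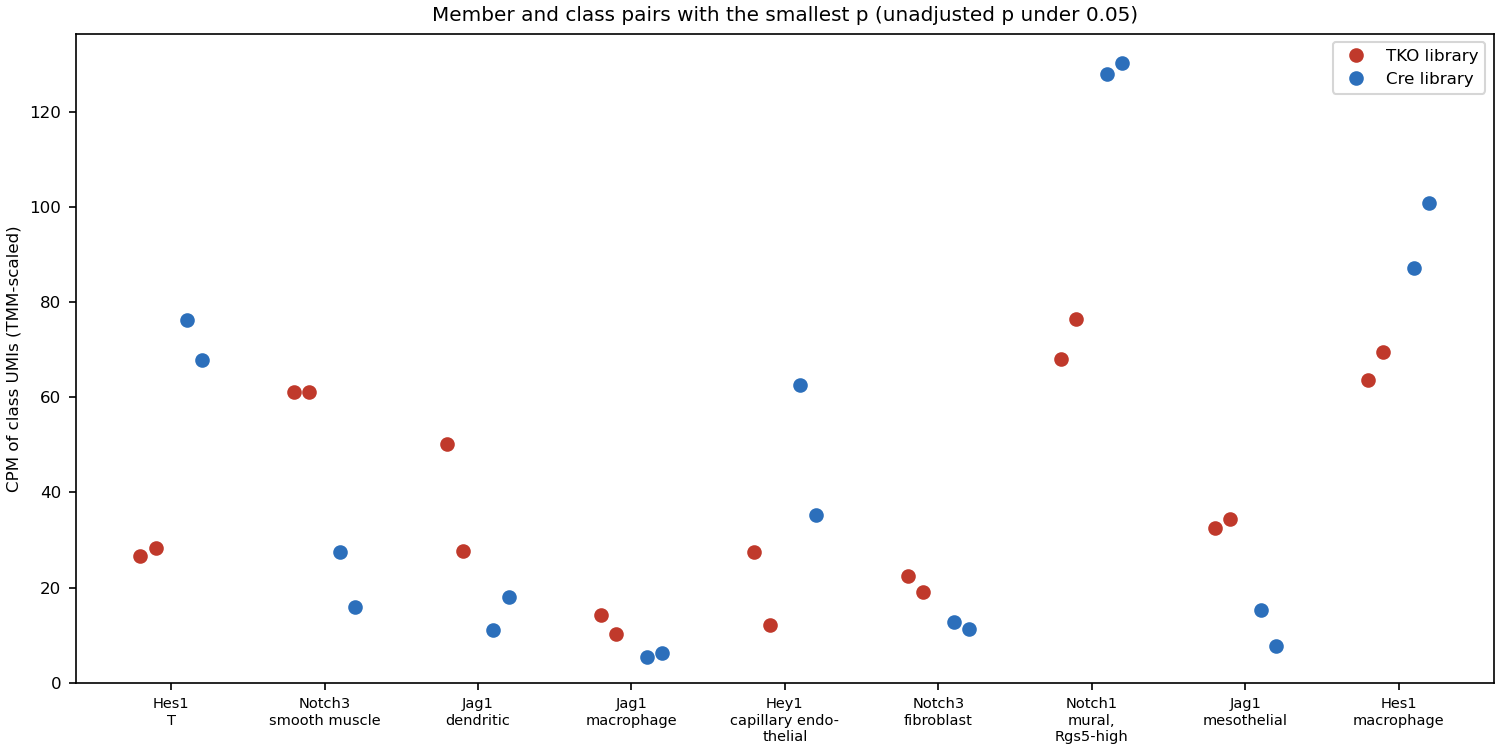
TMM-scaled CPM of class UMIs in the 2 TKO and 2 Cre libraries (dots) for the 9 pairs of a member and a class with an unadjusted p under 0.05, ordered by p. The genotypes do not overlap in any of the 9, which follows in part from picking the pairs by p. None passed the adjusted threshold.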

How the data were processed

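RNA was measured in 23 bulk and 4 single-cell libraries. Each bulk table gives, for every gene symbol, the raw counts that the authors deposited. GRCm38, featureCounts, STAR 2.5.2b, Subread 1.5.2 and Trimmomatic 0.36 are named in the submitters' processing notes. No strand setting is given in the sources used here, so genes that overlap a member on either strand are uncertain. The deposited single-cell matrices are UMI counts, and per the file headers Cell Ranger 6.0.0 wrote them. Per the labels' protocols, the chemistry was 10x Genomics 3′ v3.1, reads were paired, and bulk RNA was taken with Trizol. No label maps 1 column of per-sample values, which was not used, and the row with no gene name (at most 0.0025% of counts) was left out.

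Each bulk table was fitted alone. After filterByExpr with a minimum count of 10 and TMM scaling, all genes were tested by quasi-likelihood in edgeR 4.0.16 under R 4.3.3, with limma 3.58.1. P-values were adjusted over all genes tested by the Benjamini-Hochberg method, and every adjusted p without another tool's name is from edgeR. Alternatives were DESeq2 1.42.0, RLE factors, no filter, 1 fit of all 23 libraries and leaving out each library. The steps were tested on simulated data with 200 changed genes. Replicates are libraries, numbered by accession order in bulk and by title in single cells. Nothing says they came from separate animals, so p-values measure the spread between these samples, which may be technical. Chi-square tests between replicates gave 13.3 to 104 per gene, so every library was counted as its own. Counting floors cover counting error only.

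Cells with at least 1000 UMIs, 500 genes and at most 15% mitochondrial UMIs were kept (43812 cells), clustered in scanpy 1.11.5 and leidenalg 0.10.2 (Python 3.11.15) without the Notch genes into 37 clusters, and named from marker genes by a scoring rule chosen after seeing the data. There were 17 named classes, 16 of them with at least 20 cells in each library, and 11 clusters with 9132 cells stayed unnamed. The 16 classes held 74.1% to 95.4% of a member's UMIs. Scrublet marked under 0.5% of cells in each library, so no doublets were removed. UMIs were summed per class and library and tested as above. Alternatives here were also a replicate block, at least 2000 UMIs per cell, a 25% mitochondrial limit and leaving out the top 6% of cells by Scrublet score.

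The members and lists were chosen with earlier results of these data known. The 10 members are named throughout. Of each other list, genes past 0.05 are named, or else the 3 with the smallest p, and for each member the 3 genes of highest r. The result of 1 listed gene is not reported here, though the counts of its list include it.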

Additional observations from a re-analysis of the deposited data

Results flagged for a closer look

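In 2 of the 10 members 1 of the 4 stripped Cre libraries stood far from the others, with a gap over the range above Dixon's critical value for 4 samples, which chance passes in about 1 of 20 groups. Hey1 was at 16.8 CPM in Cre replicate 2 and at 12.1 to 12.2 CPM in the other 3 stripped Cre libraries. Rbpj was at 134 CPM in Cre replicate 1 and at 114 to 116 CPM in the other 3. Neither gene was called in stripped aorta.

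Dll4 went opposite ways in 2 tissues. Its log2 fold change was 0.69 in fibroblasts, where every TKO library lay above every Cre library, and -0.38 in non-stripped aorta, where every TKO library lay below every Cre library. Neither passed the threshold, and the difference between the tissues was not tested. The fibroblast values rest on 10 to 22 counts a library. Without TKO replicate 3 the value in non-stripped aorta was -0.17.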

How the results depend on the processing

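The members called without the filter on low counts, by DESeq2 or in the fit of all 23 libraries were as follows, against 0 reported for each TKO comparison. Non-stripped and stripped aorta each gave 1, Heyl, under all 3 settings. Fibroblasts gave 1, Jag1, without the filter, and the single-cell classes gave 2 without it, Notch3 in smooth muscle-like cells (edgeR adjusted p = 0.0432) and Hes1 in T cells (0.0307). RLE factors changed none of these counts, and no setting called a member in the test between tissues. The antibody comparison gave 6 members without the filter, Notch3 and Rbpj added, and 3 or 4 with 1 library left out. With 1 single-cell library left out, 0 to 4 member and class pairs were called, the 4 being without Cre replicate 2.

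With 1 library left out, the log2 fold change of some members with small changes turned sign. Its lowest and highest values in non-stripped aorta were -0.14 and 0.091 for Jag1 and -0.41 and 0.29 for Hes1, and in stripped aorta -0.46 and 0.54 for Notch1 and -0.17 and 1.33 for Dll4. In fibroblasts they were -0.023 and 0.11 for Notch1, -0.24 and 0.28 for Heyl and -0.071 and 0.018 for Rbpj. With anti-IL-9 they were -0.45 and 0.25 for Hey1, -0.27 and 0.019 for Heyl and -0.57 and 0.19 for Hes1. Between tissues they were -0.31 and 0.64 for Notch1, -0.23 and 0.011 for Notch3, -0.17 and 0.078 for Jag1 and -0.011 and 0.30 for Hey1. In single cells they were -0.29 and 1.12 for Hes1 in lymphatic cells, -0.49 and 0.15 for Rbpj in macrophages, -0.49 and 0.28 for Heyl in smooth muscle-like cells, and -0.49 and 0.48 for Notch3 and -0.62 and 0.092 for Jag1 in mural cells. None of these was a call. Of all single-gene values with 1 library left out, 841 kept direction and side of the threshold, 35 turned sign, 55 lost a call and 7 gained one. Under the other settings 582 kept both, 9 lost a call and 28 gained one. The cause of these changes was not tested.

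Counts over all genes moved more. In non-stripped aorta 18 genes were called, against 796 by DESeq2, 766 without the filter, 696 in the fit of all libraries and 0 to 486 with 1 library left out. In stripped aorta the counts were 4, against 577, 64, 381 and 0 to 30, in fibroblasts 10, against 417, 682, 66 and 3 to 10, and between tissues 1, against 873 by DESeq2, 159 without the filter and 0 to 242 with 1 library left out. The antibody comparison stayed within 1.5 times of its 5277 calls except without anti-IL-9 replicate 1 (3516). Single-cell classes gave 114, against 225 by DESeq2, 1683 without the filter, 546 with the replicate block, 68 at a mitochondrial limit of 25% and 241 to 4163 with 1 library left out, the highest without Cre replicate 2.

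The class in which a member was highest stayed in 8 of 10 members at 2000 UMIs per cell or more, in 9 at the 25% limit, in 10 without the top 6% of cells by Scrublet score and in 9 without any 1 library. The changes moved Hey1 to lymphatic and Heyl to mural cells. The 25% limit and the Scrublet score setting were chosen after seeing the data, and keeping Scrublet's calls was not run, since none were removed.

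In single cells the replicate block called 0 members. Same-numbered TKO and Cre libraries correlated at -0.018 to 0.38 over classes, over 0.1 in 13 of 16, with 2 pairs only, so the numbers are taken as shared numbers and not as pairs. No paired analysis was possible because bulk replicate numbers only follow accession order. With 2 to 4 libraries a group, and at most 109 Dll4 UMIs in any capillary class sum, differences in weakly read members may have been missed at this depth.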
